A study of Mus musculus with 24 samples.

Results

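The guanylate-binding protein genes (Gbp) of the mouse were followed across skin in alopecia areata (AA), under an oral JAK1 inhibitor and after its withdrawal. The 10 genes Gbp2 to Gbp11 were taken by name, and 7 of them have a row among the 39017 gene IDs of the count table. Gbp2, Gbp3 and Gbp7 lie in the chromosome 3 cluster, and Gbp4, Gbp8, Gbp9 and Gbp11 in the chromosome 5 cluster. The IDs that GENCODE M21 gives Gbp5, Gbp6 and Gbp10 have no row, and these 3 genes were not analysed here. All 7 genes with a row passed the filter on low counts.

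Guanylate-binding proteins are large GTPases that cells make in quantity after exposure to interferons, above all interferon gamma. They assemble on membranes around intracellular microbes, break these membranes open and promote inflammasome activation. Interferon gamma signals through a receptor bound to the kinases JAK1 and JAK2, and the transcription factor IRF1 is among the activators of these genes. In AA, T cells that make interferon gamma gather around hair follicles.

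Skin of female C3H/HeJ mice, in which AA is induced by a skin graft from an affected mouse, was sequenced in 24 libraries, 6 in each of 4 groups. The labels give an age of 30 weeks at termination for all samples. The 8w off Tx mice had AA, ate Cmpd A, a JAK1-selective inhibitor, at about 100 mg/kg a day for 4 weeks and were sampled at week 12, 8 weeks after the drug was stopped. The submitters' series text speaks of 12 weeks of dosing, against 4 in the sample names and the methods, and 4 is used here. The systemic JAK1i libraries are biopsies taken from living AA mice at week 4, after 4 weeks on the same dose. The AA mice were affected, and by the study they were untreated to week 12, although their sample names hold Vec12w. The healthy mice were unaffected and untreated to week 12. By the methods of the study, 8w off Tx and systemic JAK1i skin came from the same 6 mice, so these groups are not independent. Which samples share a mouse cannot be read from the replicate letters. Week and live or terminal sampling differ together with treatment in each comparison with systemic JAK1i and cannot be told apart from it.

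The libraries held 3444193 to 11233020 counted reads (median 5517357). Levels are CPM, counts scaled to library size, after TMM normalization, and 16248 genes entered a single edgeR quasi-likelihood fit. A gene is said to rise or fall where its Benjamini-Hochberg adjusted p over all these genes was below 0.05. Each log2 fold change stands with its standard error after ±. The 8 keratinocyte markers summed to 11083 to 23491 CPM over all libraries, whereas the 7 skeletal muscle markers ranged from 235 to 18523 CPM among healthy libraries alone. Fewer cells of a type and less RNA per cell cannot be told apart in such bulk skin.

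The promoters of the chromosome 3 members are shown as regulatory sequence, and the part of their motifs in the Gbp levels was not tested. Windows for the chromosome 5 members were not available here. Each covers 250 bases before and 50 after a RefSeq start (GRCm38.p6, plus strand, 5′ to 3′). Capitals mark 2 motifs that were searched on both strands. The interferon-stimulated response element (ISRE), a motif of genes induced by interferons and bound by IRF proteins, was taken as GAAA, any 2 bases and GAAA again, which reads TTTC, any 2 bases and TTTC on the other strand, and the gamma-activated site (GAS), a motif of genes induced by interferon gamma, as TTCNNNGAA. The windows are chr3:142620413-142620712 for Gbp2, chr3:142559794-142560093 for the first start of Gbp3 and chr3:142530086-142530385 for Gbp7.
Gbp2: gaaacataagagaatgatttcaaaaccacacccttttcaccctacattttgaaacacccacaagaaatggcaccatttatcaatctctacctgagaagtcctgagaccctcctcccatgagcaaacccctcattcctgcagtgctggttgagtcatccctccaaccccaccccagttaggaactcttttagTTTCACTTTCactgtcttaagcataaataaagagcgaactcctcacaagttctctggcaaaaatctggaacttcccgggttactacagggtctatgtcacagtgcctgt
Gbp3: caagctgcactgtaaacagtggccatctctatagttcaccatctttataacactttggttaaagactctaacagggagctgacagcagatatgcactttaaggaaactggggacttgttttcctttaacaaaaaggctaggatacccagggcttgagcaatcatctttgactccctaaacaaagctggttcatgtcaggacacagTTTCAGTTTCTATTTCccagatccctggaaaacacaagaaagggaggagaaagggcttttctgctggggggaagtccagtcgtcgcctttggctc
Gbp7: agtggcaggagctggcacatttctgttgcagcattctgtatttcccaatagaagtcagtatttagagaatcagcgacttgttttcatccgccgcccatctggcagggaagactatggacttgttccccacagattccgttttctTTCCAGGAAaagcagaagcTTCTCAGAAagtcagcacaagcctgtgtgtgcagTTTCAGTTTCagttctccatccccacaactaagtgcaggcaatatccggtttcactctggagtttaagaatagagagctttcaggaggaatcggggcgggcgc
Gbp2 held 1 ISRE match that began 59 bases before the start. Gbp3 held 2 overlapping ISRE matches that began 45 and 39 bases before its first start, and the window of its second start held neither motif. Gbp7 held 1 ISRE match that began 53 bases before the start, and 2 GAS matches at 106 and 87 bases before it. Of 32851 promoter windows of this length, 3.44% held the ISRE letters, 8.3% the GAS letters and 0.454% both. A match describes letters only.

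Most Gbp genes were high in 8w off Tx and AA skin and low in systemic JAK1i and healthy skin. Compared with healthy skin, all 7 rose in AA skin, with log2 fold changes between 1.70 and 4.64, where 20.9% of all genes tested rose. Their median log2 fold change was 2.75, beside 0.00 for all genes tested. For 6 of the 7, every AA library lay above every healthy library, a separation seen for 8.17% of all genes. In systemic JAK1i skin 6 of the 7 fell relative to AA, where 24.8% of all genes fell, and the exception was Gbp11. The libraries of these groups did not overlap for the same 6, as for 13.8% of all genes in that direction.

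**Figure D1:**
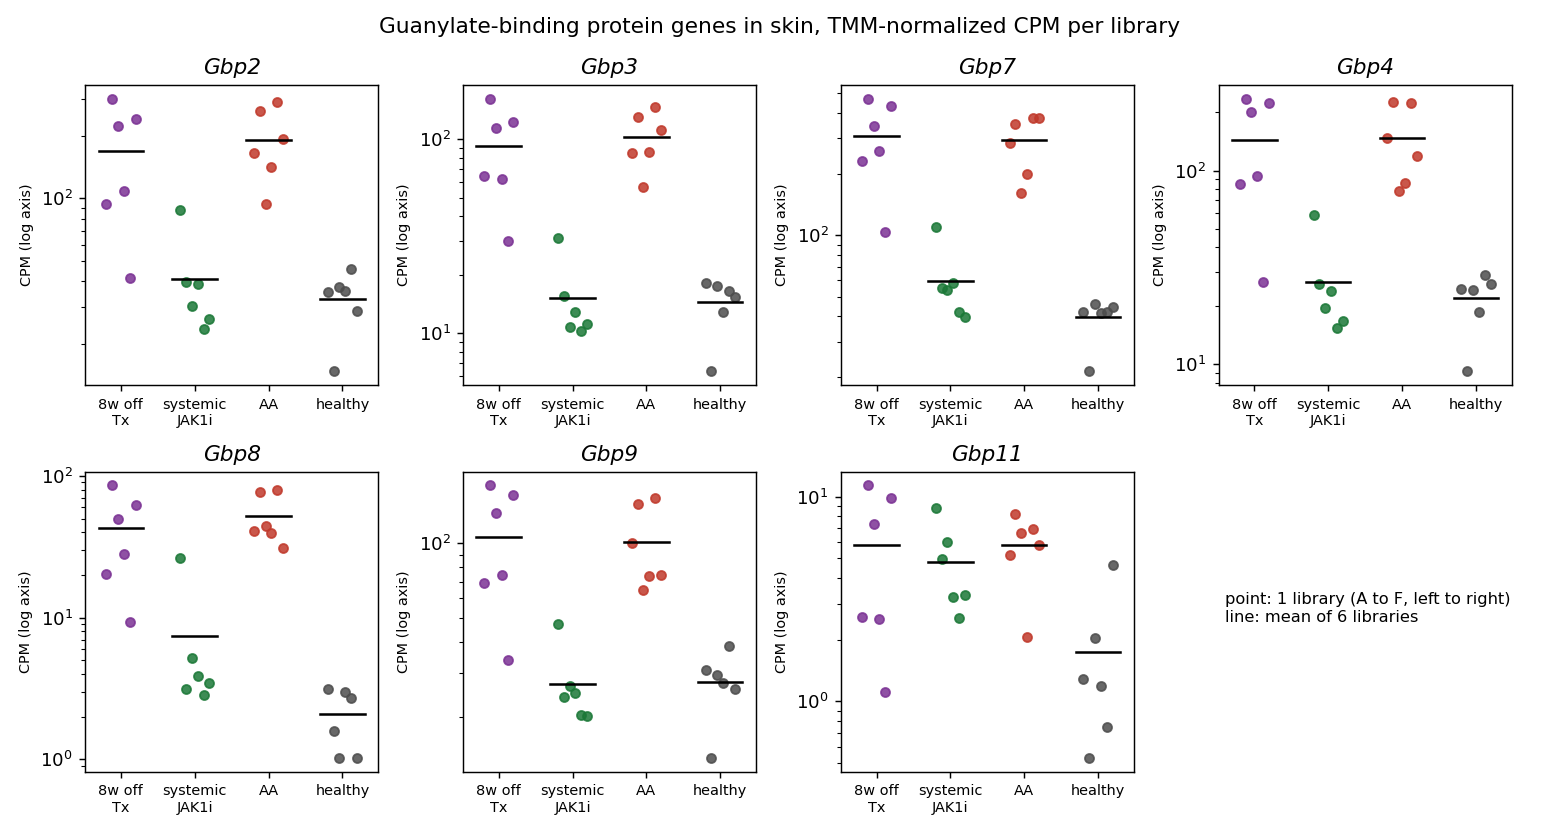
TMM-normalized CPM (log axis) of the 7 genes in each library of 8w off Tx, systemic JAK1i, AA and healthy skin, with the line at the mean of 6 libraries. In AA skin Gbp7 sits between 161.8 and 379.8 CPM, above all healthy libraries at 21.4 to 45.9 CPM, and systemic JAK1i library A is the highest of its group in every panel.

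Gbp2 (ENSMUSG00000028270, GRCm38 chr3:142620602-142638008, plus strand, protein coding) encodes a lipid-anchored GTPase that coats the vacuole of Toxoplasma gondii in mouse cells. Its CPM ranged from 41.6 to 301.9 (median 165.9) in 8w off Tx skin, from 23.5 to 87.9 (median 34.6) in systemic JAK1i skin, from 94.0 to 292.2 (median 178.8) in AA skin and from 14.8 to 45.7 (median 35.8) in healthy skin. The lowest AA library lay above the highest systemic JAK1i and healthy libraries, whereas the 8w off Tx range reached down into both. Gbp2 rose in AA against healthy by 2.54 ± 0.40 (adjusted p = 5.1e-05, edgeR) and fell in systemic JAK1i against AA, with a log2 fold change of -2.22 ± 0.39 (adjusted p = 0.00012).

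Gbp3 (ENSMUSG00000028268, GRCm38 chr3:142560026-142573209, plus strand, protein coding) encodes another GTPase of the family found at the Toxoplasma vacuole in mouse cells. Its CPM ranged from 29.9 to 162.4 (median 89.8) in 8w off Tx, from 10.3 to 30.8 (median 11.9) in systemic JAK1i, from 56.8 to 147.5 (median 98.6) in AA and from 6.32 to 18.2 (median 15.8) in healthy libraries. All 6 libraries of 8w off Tx and of AA exceeded every healthy library. The log2 fold change of Gbp3 was 2.83 ± 0.35 in AA against healthy (adjusted p = 4.1e-06, edgeR) and -2.76 ± 0.34 in systemic JAK1i against AA (adjusted p = 3.3e-06).

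Gbp7 (ENSMUSG00000040253, GRCm38 chr3:142530342-142550149, plus strand, protein coding) acts in control of intracellular pathogens in mice. It ranged from 104.4 to 470.6 CPM (median 302.0) in 8w off Tx, from 39.9 to 110.0 (median 54.5) in systemic JAK1i, from 161.8 to 379.8 (median 318.9) in AA and from 21.4 to 45.9 (median 41.9) in healthy libraries. No AA value overlapped with healthy or systemic JAK1i values. Gbp7 rose by 2.89 ± 0.30 in AA against healthy, the smallest adjusted p among the 7 genes (8.8e-07, edgeR), and its log2 fold change in systemic JAK1i against AA was -2.29 ± 0.30 (adjusted p = 5.5e-06).

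Gbp4 (ENSMUSG00000079363, GRCm38 chr5:105115767-105139586, minus strand, protein coding) is the first gene of the chromosome 5 cluster given here. Its protein has been described in mice as an inhibitor of IRF7, an activator of type I interferon genes. Gbp4 ranged from 26.5 to 235.6 CPM (median 146.7) in 8w off Tx, from 15.2 to 58.5 (median 21.7) in systemic JAK1i, from 78.6 to 226.9 (median 132.8) in AA and from 9.13 to 28.8 (median 24.2) in healthy libraries. The AA libraries again overlapped with neither systemic JAK1i nor healthy libraries. The log2 fold change was 2.75 ± 0.43 in AA against healthy (adjusted p = 4.8e-05, edgeR) and -2.46 ± 0.42 in systemic JAK1i against AA (adjusted p = 8.9e-05).

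Gbp8 (ENSMUSG00000034438, GRCm38 chr5:105014150-105139540, minus strand, protein coding) was the lowest member in healthy skin per length and had the highest fold change. It ranged from 9.29 to 85.9 CPM (median 39.0) in 8w off Tx, from 2.85 to 26.2 (median 3.67) in systemic JAK1i, from 30.9 to 79.1 (median 42.5) in AA and from 1.02 to 3.13 (median 2.15) in healthy libraries. The AA values rest on 117 to 403 reads per library, and the healthy values on 6 to 22. Gbp8 was higher in AA than in healthy skin by a log2 fold change of 4.64 ± 0.65 (adjusted p = 6.6e-06, edgeR). In systemic JAK1i against AA the log2 fold change was -2.81 ± 0.51 (adjusted p = 0.00015). Without systemic JAK1i library A it was -3.79 (adjusted p = 2.6e-06), a fold that differs 1.98 times from that of all libraries.

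Gbp9 (ENSMUSG00000029298, GRCm38 chr5:105077630-105139539, minus strand, protein coding) encodes a further GTPase that reaches the Toxoplasma vacuole in mouse cells. It ranged from 34.1 to 170.6 CPM (median 103.1) in 8w off Tx, from 20.2 to 47.5 (median 24.6) in systemic JAK1i, from 64.6 to 151.4 (median 87.5) in AA and from 13.7 to 38.7 (median 28.5) in healthy libraries. Every AA library exceeded every systemic JAK1i and healthy library. The change in Gbp9 was 1.88 ± 0.32 on the log2 scale in AA against healthy (adjusted p = 0.00012, edgeR) and -1.89 ± 0.32 in systemic JAK1i against AA (adjusted p = 7.3e-05). The annotated starts of Gbp4, Gbp8 and Gbp9 share 60 or 61 exonic bases on the same strand, at most 1.77% of any of these genes.

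Gbp11 (ENSMUSG00000092021, GRCm38 chr5:105323042-105346472, minus strand, a polymorphic pseudogene in GENCODE M21) kept to another pattern at low depth, with 3 to 61 reads per library. It ranged from 1.11 to 11.4 CPM (median 4.98) in 8w off Tx, from 2.57 to 8.83 (median 4.14) in systemic JAK1i, from 2.07 to 8.22 (median 6.21) in AA and from 0.527 to 4.63 (median 1.23) in healthy libraries. All groups overlapped. Gbp11 rose in AA against healthy by 1.70 ± 0.53 (adjusted p = 0.012, edgeR). In systemic JAK1i against AA its log2 fold change was -0.28 ± 0.46 with a 95% interval of -1.19 to 0.63 (adjusted p = 0.64). This interval does not reach the log2 fold changes of the other 6 genes, -1.89 to -2.81, and a smaller fall cannot be told from none. Of the 76-base windows of its transcripts, 10% also occur in other genes, the most in Gbp4, so its few reads are uncertain.

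How reads that fit several genes were counted is not known, so shared sequence was measured. The share of 76-base transcript windows found in any other gene was 0.915% for Gbp2, 2.00% for Gbp3, 2.98% for Gbp4, 3.47% for Gbp9, 7.87% for Gbp8, 10% for Gbp11 and 11.2% for Gbp7. For Gbp7 all but 1.21% is shared with genes that have no row. Gm43302 (ENSMUSG00000079362, GRCm38 chr5:105214907-105293695, minus strand) was named after its values were seen because 89.8% of its windows occur in Gbp6 and its exons overlap with Gbp6 and Gbp10. Gm43302 had 12.1 ± 7.58 TPM in 8w off Tx, 4.26 ± 3.26 in systemic JAK1i, 17.2 ± 6.68 in AA and 2.08 ± 0.729 in healthy skin (SD, n = 6). Its log2 fold change was 3.26 ± 0.39 in AA against healthy (adjusted p = 2.6e-06, edgeR) and -2.67 ± 0.37 in systemic JAK1i against AA (adjusted p = 9.3e-06). Gbp2b, the family gene that lies between Gbp3 and Gbp2, rose by 2.60 ± 0.45 in AA against healthy (adjusted p = 0.00013) and had -2.27 ± 0.44 in systemic JAK1i against AA (adjusted p = 0.00026).

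**Figure D2:**
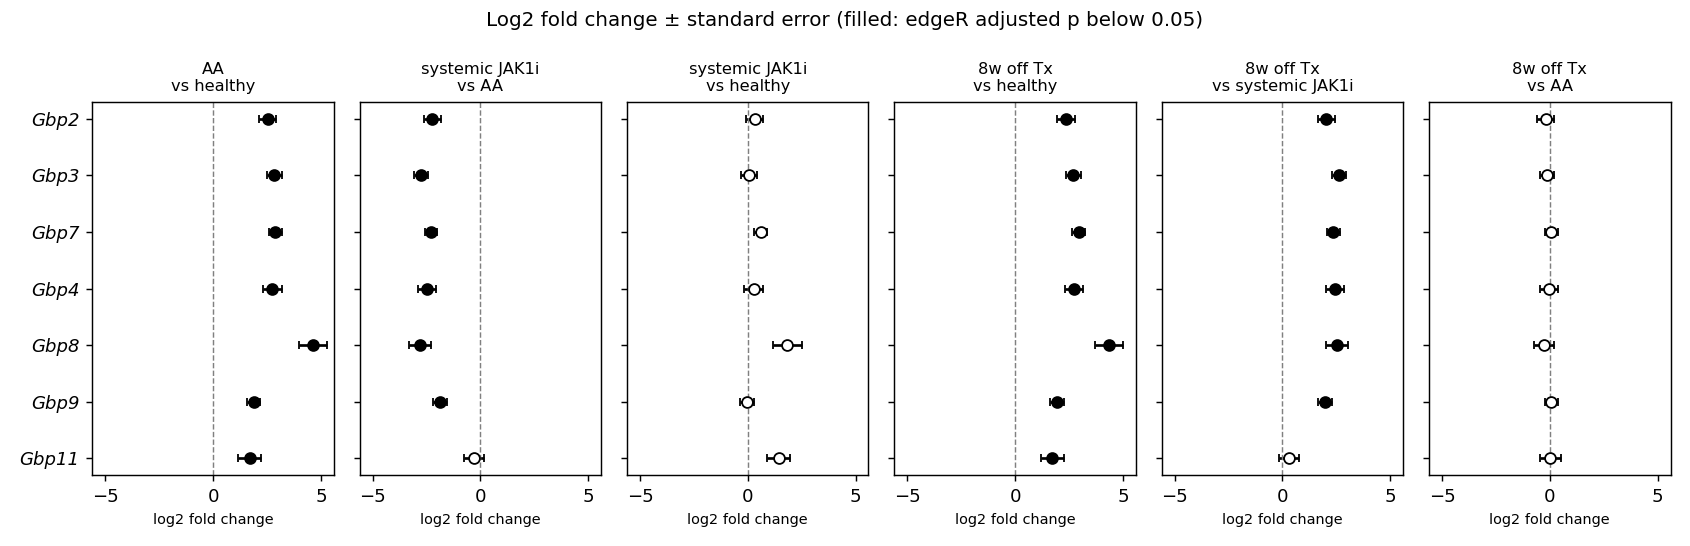
Log2 fold change ± standard error of the 7 genes (rows) in the 6 comparisons (panels), filled where the edgeR adjusted p was below 0.05. All 7 points are filled in AA against healthy and in 8w off Tx against healthy, 6 of 7 in the comparisons of systemic JAK1i with AA and of 8w off Tx with systemic JAK1i, and none in the others.

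Against healthy skin, systemic JAK1i skin showed no called difference in any of the 7 genes, where 0.511% of all genes tested rose and 87 genes fell. In the edgeR fit 2 of the 7 had an unadjusted p below 0.05, as did 2751 of all 16248 genes. DESeq2 called 1 gene, Gbp8 (adjusted p = 0.044), where 1.79% of all genes rose. Without healthy library F, edgeR called Gbp11 (adjusted p = 0.039), where 2.28% of all genes rose. The log2 fold change was 0.32 for Gbp2 (95% interval -0.47 to 1.11), 0.07 for Gbp3 (-0.64 to 0.78), 0.29 for Gbp4 (-0.56 to 1.15) and -0.02 for Gbp9 (-0.67 to 0.63). The upper ends of these intervals reach 2.16-fold for Gbp2 and 2.22-fold for Gbp4. Gbp7 had 0.60, with a 95% interval of 0.999-fold to 2.30-fold (adjusted p = 0.32). Gbp8 had 1.84 (0.51 to 3.16, adjusted p = 0.15), or 0.85 without systemic JAK1i library A (adjusted p = 0.48), and Gbp11 had 1.43 (0.39 to 2.46, adjusted p = 0.16). As a share of the AA minus healthy difference in mean CPM, systemic JAK1i skin held 10.8% for Gbp8, 8.03% for Gbp7, 5.11% for Gbp2, 3.89% for Gbp4, 0.877% for Gbp3, -0.571% for Gbp9 and 75.6% for Gbp11. Leaving out library A, these shares were 3.26% for Gbp8, 4.06% for Gbp7, -0.797% for Gbp2, -1.22% for Gbp4, -2.66% for Gbp3, -6.05% for Gbp9 and 55.9% for Gbp11, so that Gbp2, Gbp4 and Gbp3 turned to just below the healthy mean.

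After withdrawal the family was again high. In 8w off Tx against healthy skin all 7 rose, where 16.9% of all genes rose, with log2 fold changes from 1.73 ± 0.53 for Gbp11 (adjusted p = 0.013, edgeR) to 4.37 ± 0.65 for Gbp8 (adjusted p = 2.6e-05). The groups did not overlap for 3 of the 7 (Gbp3, Gbp7 and Gbp8), as for 4.31% of all genes. Against systemic JAK1i, 6 of the 7 rose in 8w off Tx, where 19.4% of all genes rose. Gbp3 had the highest log2 fold change there, 2.62 ± 0.34 (adjusted p = 1.2e-05), Gbp9 had 1.96 ± 0.32 (adjusted p = 9.8e-05) and Gbp11 had 0.30 ± 0.46 (adjusted p = 0.65). Gbp8 had 2.53 ± 0.51 (adjusted p = 0.00066), and 3.51 without systemic JAK1i library A (adjusted p = 1.1e-05). With all libraries the groups overlapped for all 7 genes, where 8.77% of all genes lay higher in 8w off Tx with no overlap. Without systemic JAK1i library A, 6 of the 7 did not overlap, as for 9.96% of all genes, and without 8w off Tx library E instead, 5 of the 7 did not, as for 11.2%. On the deposited TPM values, log2(TPM + 0.1) without centring, only Gbp3, Gbp7 and Gbp8 were called in this comparison, and with each library centred on its median 6 were.

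Set against AA, 8w off Tx skin had no called difference in any of the 7 genes, where 0.726% of all genes rose and 104 genes fell. In the edgeR fit 0 of the 7 had an unadjusted p below 0.05, against 3011 of all 16248 genes. DESeq2 and limma-voom also called 0. The log2 fold changes lay between -0.28 ± 0.47 for Gbp8 and 0.07 ± 0.30 for Gbp7, with adjusted p from 0.80 to 0.98. The 95% intervals span -1.21 to 0.65 for Gbp8 and -0.55 to 0.68 for Gbp9, so that ratios from 0.434 to 1.57 for Gbp8 and from 0.682 to 1.60 for Gbp9 remain possible. Mean Gbp7 was 307.1 ± 136.1 CPM in 8w off Tx and 293.0 ± 94.4 CPM in AA skin (SD, n = 6 each).

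Per length, Gbp2 was the most abundant of the 7 in all 24 libraries. In AA skin the order by mean TPM, a unit scaled for transcript length, was Gbp2 (39.8 ± 17.5), Gbp7 (19.4 ± 7.01), Gbp3 (16.8 ± 6.32), Gbp9 (15.02 ± 7.37), Gbp4 (13.2 ± 7.01), Gbp8 (9.21 ± 4.71) and Gbp11 (4.80 ± 2.79), each SD with n = 6. The spreads of neighbours from Gbp7 to Gbp4 overlapped, and Gbp3 exceeded Gbp9 in only 4 of 6 AA libraries. In healthy skin Gbp2 (8.10 ± 3.02 TPM) was followed by Gbp9 (4.40 ± 1.52), and Gbp8 was last (0.532 ± 0.50). The TPM of the 7 genes summed to 84.9 ± 55.8 in 8w off Tx, 38.1 ± 22.7 in systemic JAK1i, 118.3 ± 51.4 in AA and 23.7 ± 8.42 in healthy skin. TPM compares genes within a library here, since between 8w off Tx and systemic JAK1i the median of all genes differed by -1.16 on the log2(TPM + 0.1) scale and by 0.00 on the CPM scale.

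**Figure D3:**
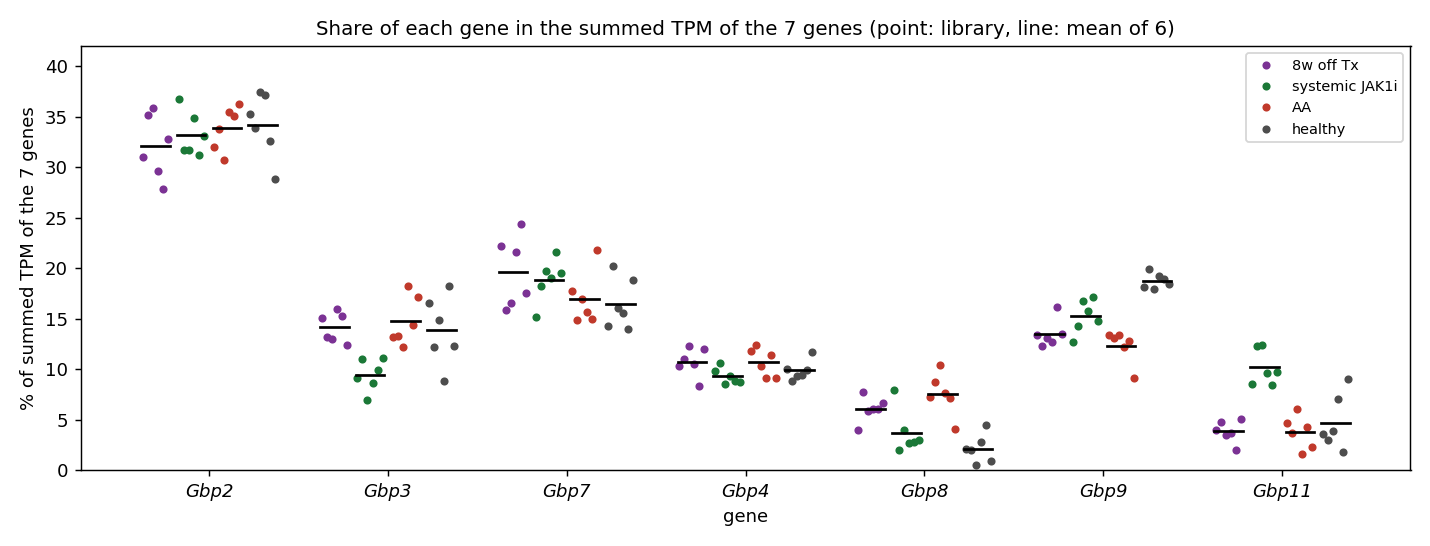
Share of each gene (x axis) in the summed TPM of the 7 genes, in percent, for each library of 8w off Tx, systemic JAK1i, AA and healthy skin, with the line at the mean. Gbp2 holds 27.9 to 37.4% of the sum in every library, while Gbp11 stands at 8.46 to 12.4% in systemic JAK1i against 1.65 to 6.06% in AA libraries.

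The composition of the family was also compared by the share of each gene in this sum. Gbp2 held 32.1 ± 3.13% in 8w off Tx, 33.2 ± 2.19% in systemic JAK1i, 33.9 ± 2.17% in AA and 34.2 ± 3.21% in healthy skin, within the spread of libraries. Gbp9 took 12.3 ± 1.63% in AA and 18.8 ± 0.724% in healthy skin, and the libraries of these groups did not overlap. Gbp8 took 7.56 ± 2.08% in AA and 2.15 ± 1.42% in healthy skin. Gbp11 took 10.2 ± 1.77% in systemic JAK1i and 3.78 ± 1.60% in AA skin, again with no overlap. As shares sum to a whole, a higher share of Gbp11 does not show a higher level, and its mean was 3.77 TPM in systemic JAK1i and 4.80 TPM in AA skin.

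**Figure D4:**
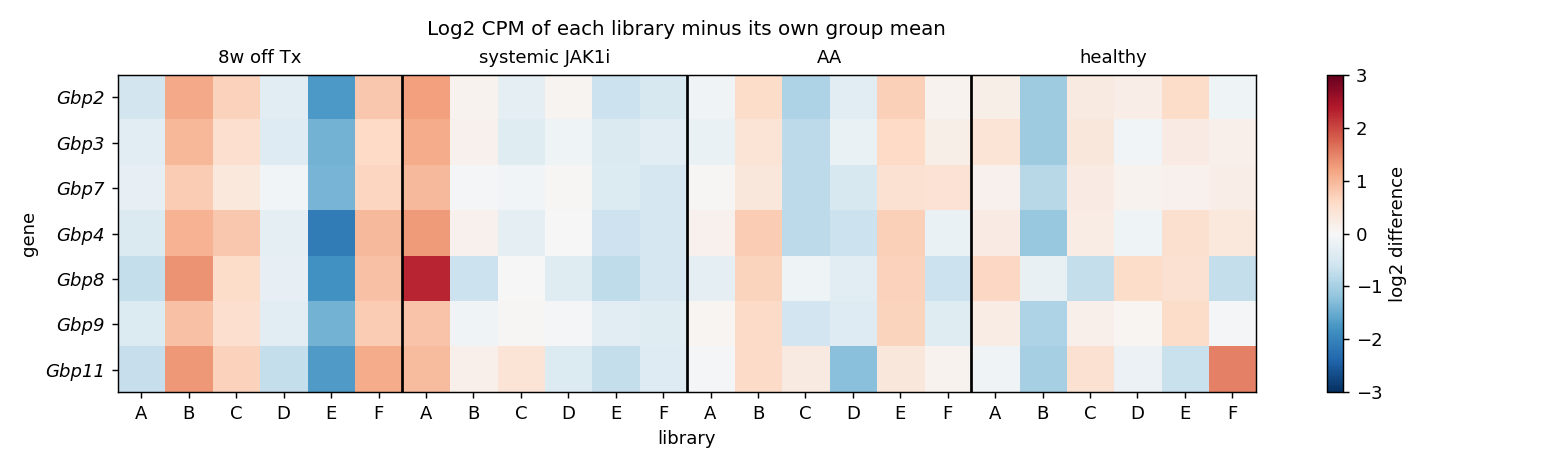
Log2 CPM of each gene (rows) in each library (columns) minus the mean of its own group, red above and blue below. Systemic JAK1i library A is the highest of its group for all 7 genes and 8w off Tx library E the lowest for all 7.

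Within groups the genes moved together. Systemic JAK1i library A was the highest of its 6 for all 7 genes, at 1.97 times the median of the other 5 libraries for Gbp9 and 7.54 times for Gbp8. In 8w off Tx, libraries B, C and F held the 3 highest values and library E the lowest value of all 7 genes. The summed skeletal muscle markers of 8w off Tx were lowest in libraries B, F and C (6984, 9454 and 14124 CPM). They were 20037 CPM in D, 30461 in A and highest in E at 32604. Other summed markers of 8w off Tx differed as well. Those of keratinocytes were highest in E and A (19955 and 18471 CPM, others 12783 to 14121). Macrophage and monocyte markers were highest in B and F (685.6 and 623.6 CPM, others 256.2 to 325.9). T cell markers were highest in A (108.7 CPM) and lowest in D (36.2 CPM). The part of all these markers in the Gbp values was not tested. Healthy library B was the lowest for 6 of the 7, Gbp8 being the exception. Across all 24 libraries, deviations from the group means correlated between genes with Pearson's r of 0.567 to 0.974 over the 21 pairs (median 0.833), highest for Gbp4 with Gbp9. These pairs share libraries and depth, and the values are a description.

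Ifng, which encodes interferon gamma, was near the detection limit. It had 3, 28, 18, 2, 2 and 13 reads in 8w off Tx libraries A to F, 11, 3, 0, 3, 2 and 1 in systemic JAK1i, 17, 27, 3, 18, 20 and 1 in AA and 0, 0, 1, 0, 1 and 0 in healthy libraries. The highest Ifng counts of 8w off Tx were thus in the 3 libraries highest for the Gbp genes, and that of systemic JAK1i in library A. AA library F, with 1 Ifng read, had high Gbp7 (379.4 CPM) but the lowest Gbp8 of its group (30.9 CPM). AA library C, with 3 Ifng reads, was the lowest of its group for 5 of the 7 genes. AA library E, with 20 Ifng reads, was the highest for 5 of the 7. AA library D, with 18 Ifng reads, was among the lowest 2 for 6 of the 7, so Ifng reads did not order the AA libraries as the Gbp genes did. Ifng rose in AA against healthy by 5.10 ± 1.79 (adjusted p = 0.00038, edgeR), with 2 healthy reads in all. Irf1 rose by 1.76 ± 0.29 (adjusted p = 7.8e-05), and in systemic JAK1i against AA it had -1.70 ± 0.29 (adjusted p = 7.6e-05).

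In AA against healthy, 3394 of all 16248 genes tested rose (20.9%) and 3139 fell. Of the 12 genes of the interferon gamma axis, 7 rose and 1 fell there, and the median over the list was 0.757 log2 units. The gene that fell, named after its value was seen, was the receptor chain Ifngr1 (-0.56 ± 0.10, adjusted p = 0.00018, edgeR). Nlrc5, the transactivator of MHC class I genes, rose by 1.06 ± 0.15 (adjusted p = 1.2e-05). Of 9 tested genes of the type I interferon axis 5 rose, among them Stat2 (2.15 ± 0.21, adjusted p = 2.8e-07) and Irf9 (1.22 ± 0.13, adjusted p = 8.8e-07). Of the 13 other interferon-inducible GTPases 12 rose in AA against healthy, with a median of 4.36. In systemic JAK1i against AA 12 fell, where 24.8% of all genes fell. In systemic JAK1i against healthy skin 3 of the 13 were higher, where 0.511% of all genes rose. They were Gm12185 (2.98 ± 0.46, adjusted p = 0.0021), Gm4841 (3.08 ± 0.80, adjusted p = 0.035) and F830016B08Rik (2.30 ± 0.40, adjusted p = 0.0091).

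Genes whose products act with the family were counted too, in AA against healthy, where 20.9% of all genes tested rose and 3139 of 16248 fell. Of 9 inflammasome genes 1 rose in AA against healthy, Casp1 (0.42 ± 0.13, adjusted p = 0.010, edgeR), the protease of the canonical inflammasome, while Gsdmd, the pore former, had 0.58 ± 0.24 (adjusted p = 0.057). Of 10 ATG8 conjugation genes, which in mouse cells direct these GTPases to vacuoles, 1 rose, Atg7 (0.20 ± 0.07, adjusted p = 0.027). Of 6 genes for CaaX prenylation, the type of lipid anchoring that Gbp2 carries, 1 rose and 1 fell. Fntb had 0.59 ± 0.13 (adjusted p = 0.00069) and Fnta had -0.52 ± 0.07 (adjusted p = 4.8e-06). Which of these products act on Gbp2 was not tested.

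Some cell type markers differed between the same groups. Of all 16248 genes tested, 3394 rose and 3139 fell in AA against healthy. In systemic JAK1i against AA 3718 rose and 4037 fell, and in 8w off Tx against systemic JAK1i 3144 rose and 2697 fell. The 9 T cell markers summed to 36.2 to 108.7 CPM in 8w off Tx, 18.03 to 39.7 in systemic JAK1i, 35 to 130.4 in AA and 19.9 to 40.2 in healthy libraries, with 4 higher in AA against healthy, 7 lower in systemic JAK1i against AA, and 6 higher and 1 lower in 8w off Tx against systemic JAK1i. Cd8b1 alone was at 0 in all healthy libraries. The 9 macrophage and monocyte markers did not follow the Gbp genes in all groups, with 256.2 to 685.6 CPM in 8w off Tx, 257.3 to 886.2 in systemic JAK1i, 305.4 to 835.2 in AA and 204.3 to 654.6 in healthy libraries. Of these, 4 rose in AA against healthy, 3 fell in systemic JAK1i against AA and 0 were called in 8w off Tx against systemic JAK1i. The 8 endothelial markers summed to 126.5 to 199.2 CPM in 8w off Tx, 254.2 to 318.6 in systemic JAK1i, 71.9 to 171.6 in AA and 197.8 to 417.6 in healthy libraries. All 8 fell in AA against healthy, 8 rose in systemic JAK1i against AA and 7 fell in 8w off Tx against systemic JAK1i. Of the 6 fibroblast markers 2 fell in AA against healthy and 6 fell in 8w off Tx against systemic JAK1i, of the 8 keratinocyte markers 3 rose and 2 rose there, and of the 7 skeletal muscle markers 0 were called and 1 fell. The part of these cells in the Gbp levels was not tested.

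The genes whose log2 CPM followed the mean of the 7 most closely over 24 libraries were sought outside the family. The 7 genes, Gbp2b and Gm43302 were left out of this search. The nearest was ENSMUSG00000028269 (Pearson's r = 0.990), an ID that has no symbol in GENCODE M21, so whether it belongs to the family is not known. It was followed by Gm4951 (r = 0.987), the chemokine genes Cxcl10 (r = 0.982) and Cxcl9 (r = 0.978) and the transcription factor gene Batf2 (r = 0.976). The libraries fall into a high and a low set, so these values rest mostly on the difference between groups. Cxcl9 had a log2 fold change of 4.67 in AA against healthy and -3.29 in systemic JAK1i against AA, and ENSMUSG00000028269 had 2.88 and -2.51 there.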

How the data were processed

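RNA of whole dorsal skin was measured by RNA-seq in 24 mouse libraries. The authors removed ribosomal RNA with a TruSeq Stranded Total RNA kit without fragmentation, since RNA integrity was low, read 2 x 76 bases, aligned with HISAT2 2.0.1 to mm10 (GRCm38) and deposited counts per gene from featureCounts 1.4.4. The deposited TPM table covers the same IDs. The labels speak of PolyA RNA. Annotation release, strand setting and handling of multi-mapped reads were not given in the sources used here. Overlapping genes and genes that share sequence are therefore uncertain. No sample matches 6 columns of each file, which were left out. GENCODE M21 gave a symbol for 37607 of 39017 IDs and none for 1410, so reads of Gbp5, Gbp6 and Gbp10 may stand under other IDs.

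R 4.3.3 was used with edgeR 4.0.16 (filterByExpr with a minimum count of 10, TMM, glmQLFit over the 4 groups, glmQLFTest for 6 comparisons), DESeq2 1.42.0 and limma 3.58.1. Standard errors come from the negative binomial fit, and 95% intervals from these with a normal quantile. P-values measure the spread between libraries. Log2 CPM used a prior count of 2. Shared windows are stretches of 76 bases, the read length, of GENCODE M21 transcripts. Whether replicate letters pair mice is not known, so the main edgeR fit left them out. At most 2 of 6 same-letter pairs correlated above 0.1 in any comparison. Between 8w off Tx and systemic JAK1i, the groups that share mice, 1 of 6 did (-0.22 to 0.38 over the pairs). These correlations cannot decide the pairing, since skin of one mouse was taken 8 weeks apart, on and off the drug.

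The members and gene lists were chosen with earlier results of these data known. All members and Gbp2b were to be named, with Ifng and Irf1, the 2 genes of each list with the smallest adjusted p in AA against healthy and its 2 most abundant genes, and the 5 genes most like the family. Not all of these are named, for length, and 1 further gene of the rule is not reported here. Alternatives were RLE size factors, no filter, the replicate block, fits of 2 groups, DESeq2, limma-voom, limma on TPM and leaving out each library. Leaving out 8w off Tx libraries A and E together was added after the data were seen.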

Additional observations from a re-analysis of the deposited data

Results flagged for a closer look

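In 28 groups of 6 libraries, 7 for each group of mice, Dixon's test at its 95% critical value was applied to log2 CPM of the 7 genes, and 7 groups held a library far from the others. Chance alone gives about 1 in 20. As the genes move together within libraries, these 7 are not independent.

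Systemic JAK1i library A stood above the others for 4 genes. The ratio of its gap to the range was 0.631 for Gbp3 (30.8 CPM, others 10.3 to 15.4), 0.632 for Gbp7 (110.0 CPM, others 39.9 to 58.0), 0.741 for Gbp8 (26.2 CPM, others 2.85 to 5.18) and 0.679 for Gbp9 (47.5 CPM, others 20.2 to 26.6). The same library had 11 Ifng reads (others 0 to 3). Its summed markers were 39.7 CPM for T cells (others 18.03 to 36.2), 886.2 for macrophages and monocytes (others 257.3 to 522.1), 9402 for fibroblasts (others 4919 to 7628), 11813 for keratinocytes (others 12708 to 14826), 254.2 for endothelium (others 286.6 to 318.6) and 14824 for skeletal muscle (others 13991 to 17976), and their part in the Gbp values was not tested.

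Healthy library B stood below the others for Gbp3 (ratio 0.668, 6.32 CPM, others 12.9 to 18.2) and Gbp7 (ratio 0.868, 21.4 CPM, others 41.5 to 45.9). Its summed markers were 23491 CPM for keratinocytes (others 11083 to 14959) and 2544 for fibroblasts (others 5222 to 7054). They were 19.9 for T cells (others 29.8 to 40.2), 204.3 for macrophages and monocytes (others 292.5 to 654.6) and 197.8 for endothelium (others 238.5 to 417.6). For skeletal muscle they were 14338 (others 235 to 18523), and the part of these markers in the Gbp values was not tested. AA library D stood below the others for Gbp11 (ratio 0.657, 2.07 CPM, others 5.21 to 8.22).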

How the results depend on the processing

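The number of Gbp genes called was compared over the 6 comparisons in 129 alternative fits, of which 126 stayed within 1.5 times the number given. In systemic JAK1i against healthy, where 0 were called, DESeq2 called 1, with 1.79% of all genes higher. Leaving out each library in turn gave 0 to 1, with 0.141% to 2.28% of all genes higher. In 8w off Tx against systemic JAK1i, limma on log2(TPM + 0.1) called 3 in place of 6, and limma on log2(TPM + 1) called 4. Uncentred log2(TPM + 0.1) moved the median of all genes by -1.16 there, with 229 genes higher and 13920 lower in place of 3144 and 2697, and by -0.80 to 0.65 in the other comparisons. With the replicate block, 7, 6, 0, 7, 6 and 0 genes were called in AA against healthy, systemic JAK1i against AA, systemic JAK1i against healthy, 8w off Tx against healthy, 8w off Tx against systemic JAK1i and 8w off Tx against AA, the same numbers as without it. Of 903 refitted log2 fold changes of single genes, 6 fell short of the threshold, all on uncentred TPM (Gbp2, Gbp4 and Gbp9 in 8w off Tx against systemic JAK1i, and Gbp11 in 8w off Tx against healthy at 1.34, adjusted p = 0.056), 2 passed it and none of the called ones changed sign. Without 8w off Tx libraries A and E, added after the data were seen, 7, 6 and 0 were called against healthy, systemic JAK1i and AA. The summing of near-identical genes was not run, as no measured Gbp genes are near-identical. Gbp8 and Gbp11 rest on few reads in healthy libraries (6 to 22 and 3 to 27), and Ifng on 0 or 1.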
